A study of Mus musculus with 8 samples.

Results

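The BCL2 family genes described here are 10 genes that set the threshold for mitochondrial cell death: Mcl1, Bcl2l1, Bcl2, Bax, Bak1, Bcl2l11, Bmf, Bid, Bbc3 and Pmaip1. They were chosen by gene symbol, each matched a single row, and they are 10 of the 22013 genes in the deposited table. Expression was measured by poly(A) RNA sequencing in 8 pools of mouse blastocysts, each of 5 embryos, derived by in vitro fertilisation from wild-type ICR females of 6 to 8 weeks and ICR males of 8 to 10 weeks. In the 4 agomir pools the embryos grew in KSOM medium with miR-21-5p agomir, a chemically modified mimic of the microRNA, at 50 nM, from after fertilisation until they were blastocysts, about 75 h. In the 4 blank control pools they received vehicle without any oligonucleotide, so an effect of miR-21-5p and an effect of any oligonucleotide cannot be told apart. The labels place all 8 pools in a single batch and do not say whether pools shared a fertilisation session, so p-values here cover only the variation among these pools.

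In this family the survival proteins MCL1, BCL-XL (gene Bcl2l1) and BCL2 hold the effectors BAX and BAK (gene Bak1) in check. The BH3-only proteins BIM (gene Bcl2l11), BMF, BID, PUMA (gene Bbc3) and NOXA (gene Pmaip1) bind the survival proteins, and some also engage the effectors directly. Once free, BAX and BAK open the outer mitochondrial membrane and cytochrome c reaches the cytosol, where caspases are activated. Some cells of the mouse blastocyst, many of them in the inner cell mass, normally die by apoptosis, and mouse embryos without Mcl1 fail around implantation. The comparison of agomir with blank control asks whether the messenger RNAs of these proteins differ after culture with the mimic.

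The mature microRNA is shown because its seed, bases 2 to 8 and here in capitals, is what pairs with messenger RNAs; the sequence is that of RefSeq on build GRCm38.p6.
mmu-miR-21a-5p: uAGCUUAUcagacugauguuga
In 3′ untranslated regions from GENCODE release M21, taking the longest per gene, the 7-base seed match ATAAGCT was found in Bcl2l11 alone of the 10 genes, once in 4218 bases. Among tested genes with such a region, 961 of 12222 (7.86%) held the match, and among those with regions of similar length to that of Bcl2l11, 21.2% did. The shorter match TAAGCTA, to seed bases 2 to 7 followed by A, was found once in Bcl2 and once in Mcl1, and the 6-base core TAAGCT once more in Bcl2. TAAGCTA was present in 7.60% of the same tested genes and the core in 26.1%, so the 3 of 10 genes that held the core (Bcl2, Bcl2l11 and Mcl1) are near the share over all genes. The regions of Bmf (3801 bases), Bcl2l1, Bax, Bak1, Bid, Bbc3 and Pmaip1 held none of these letters in the transcript strand. The matches are printed in capitals with their neighbouring bases, the first Bcl2 line being the site 704 bases after the stop codon and the other the site at base 2989.
Bcl2l11 site: atatgtatatgtatattacctATAAGCTtc
Mcl1 site: ccactggtaactgaaggtattTAAGCTAgg
Bcl2 first site: aatcataggaaattattttttTAAGCTAcc
Bcl2 other site: cacccaaatctcacctcctctgTAAGCTtt

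Library totals ranged from 12246102 to 23147449 counts, and blank control 1 had the lowest. In a principal component analysis, control 2 was the extreme library of component 1 (26.2% of variance) and agomir 3 that of component 2 (21.6%). The markers that define the blastocyst's lineages were present: 10 of 10 trophectoderm genes, 7 of the 8 listed inner cell mass genes and 8 of 8 primitive endoderm genes were tested. The summed level of the trophectoderm markers ran from 2620 to 4593 CPM (counts scaled to library size with TMM factors) in controls. In agomir pools it ran from 3354 to 8892 CPM. The top values were in control 2 and agomir 3. Krt8 and Krt18 gave much of these sums, with 1170 and 2016 CPM in control 2 and 2907 and 3539 CPM in agomir 3. All 10 trophectoderm markers had a higher fitted value with the agomir (median log2 fold change 0.59). Of the inner cell mass markers, 6 of 7 had a lower one (median -0.33). The primitive endoderm markers were mixed, with 5 higher and 3 lower (median 0.13). Among all tested genes, 50.6% were above 0. In edgeR, 5 of the 10 trophectoderm markers and 1 of the 7 inner cell mass markers reached an unadjusted p under 0.05. So did 1 of the 8 primitive endoderm markers (Hnf4a, lower with the agomir), against 6.38% of all tested genes. An adjusted p under 0.05 was reached by 0 of these markers, as by 0 of all genes. In pooled embryos, fewer cells of a type and less RNA per cell cannot be told apart. The summed cumulus and granulosa markers, of cells that surround the egg, were at 5.36 to 16.3 CPM in controls and 1.21 to 13.1 CPM in agomir pools.

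Levels per gene length spread widely across the family, from a mean over all 8 libraries of 71.0 FPKM for Bax to 0.0388 FPKM for Bcl2. In FPKM, the deposited unit that scales fragments to gene length and depth, Bax stood highest at 82.9 ± 34.7 in controls and 59.1 ± 25.1 in agomir pools (SD, n = 4), above every other member in all 8 libraries. Mcl1 followed at 18.8 ± 2.22 and 17.1 ± 2.24 FPKM, and its lowest library (13.8 FPKM) was above the highest library of the next gene (12.6 FPKM). Bcl2l1 (6.84 ± 3.93 and 5.77 ± 1.46 FPKM), Pmaip1 (6.14 ± 1.44 and 4.48 ± 1.28) and Bid (5.02 ± 2.00 and 4.53 ± 1.58) overlapped one another. Bcl2l1 exceeded Pmaip1 in 4 of 8 libraries, and Pmaip1 exceeded Bid in 4 of 8, so the order of these 3 genes is within their spread. Bid exceeded Bcl2l11 in all 8 libraries.

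Below them came Bcl2l11 (1.69 ± 0.624 FPKM in controls and 1.23 ± 0.401 in agomir pools) and Bak1 (0.823 ± 0.320 and 1.245 ± 0.679), whose ranges overlapped. Bbc3, Bmf and Bcl2 were under 0.5 FPKM on average in both groups. Bcl2 was the lowest member, with at most 0.13 FPKM in controls, and was listed at 0 in agomir 1 and agomir 2. So among the survival genes the messenger RNA of Mcl1 was the most abundant per length and that of Bcl2, the founding gene of the family, was near the detection limit. Of the effectors, Bax far exceeded Bak1.

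**Figure D1:**
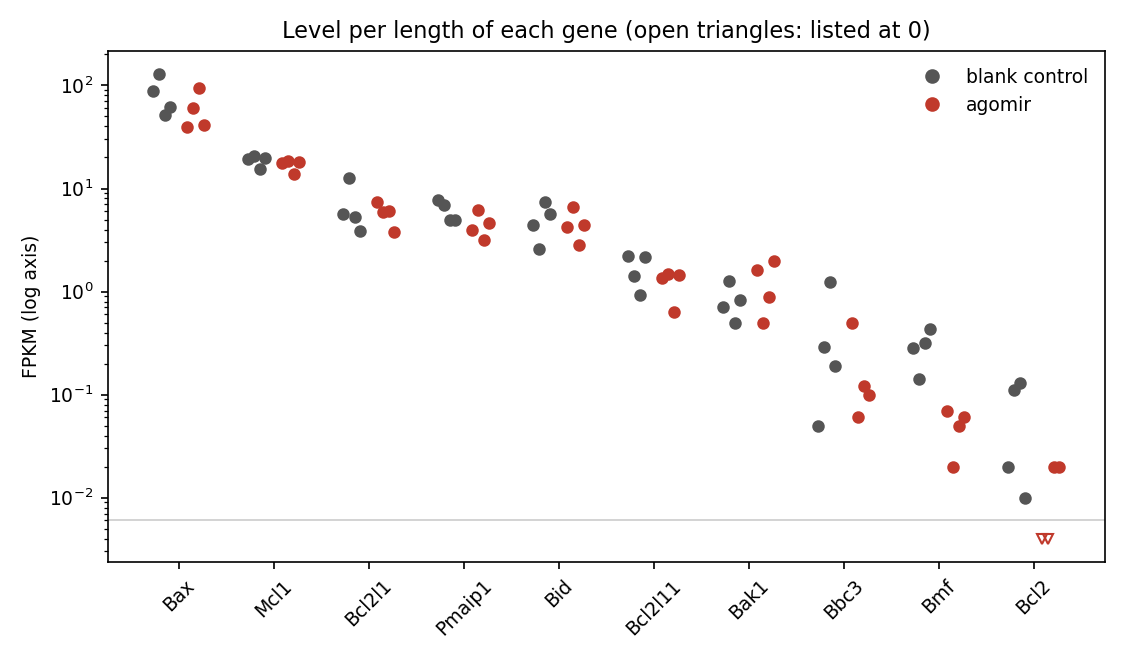
FPKM of each of the 10 genes (log axis) in the 4 blank control libraries and the 4 agomir libraries, ordered by the mean over all 8; each point is 1 library, and open triangles are libraries listed at 0. Bax (39.97 to 129.32 FPKM) and Mcl1 (13.8 to 20.6 FPKM) stand above the rest, and Bcl2 stands lowest.

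Summed by role, the survival genes had 25.7 ± 5.34 FPKM in controls and 22.9 ± 2.40 in agomir pools (SD, n = 4), and the 5 BH3-only genes 13.6 ± 1.65 and 10.5 ± 3.11. The effectors Bax and Bak1, nearly all Bax, had 83.8 ± 35.0 and 60.4 ± 24.7 FPKM. Their relative Bok, described below, is outside the 10 genes and not in this sum. Bax over the summed FPKM of Bcl2, Bcl2l1 and Mcl1 was 3.60, 3.88, 2.48 and 2.60 in the controls, in replicate order. In the agomir libraries it was 1.597, 2.47, 4.73 and 1.90. The groups overlapped, with the highest ratio of all 8 libraries in agomir 3. Agomir 2 was level with control 3 (2.470 against 2.475), and agomir 1 and agomir 4 lay below every control.

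The question of a difference between the groups was put to all genes in a single fit, with edgeR's quasi-likelihood test and Benjamini-Hochberg adjustment over 12366 genes. Of the 10 genes, 8 passed the filter on low counts, and Bcl2 and Bbc3 did not. None of the 8 passed an adjusted p of 0.05 (0 called, against 0 of all genes, 0%), and the smallest adjusted p among them was 0.656. DESeq2 also called 0 of the 8, while it called 33 genes in all (0.267% of those with an adjusted p). At an unadjusted p under 0.05 in edgeR there was 1 of the 8, Bmf, where 6.38% of all tested genes had such a p (3.74% lower and 2.64% higher). The groups did not overlap for 1 of the 8, again Bmf, against 3.89% of all tested genes (2.47% with the agomir lower). Bmf passed the filter through its control libraries alone, so the filter favoured its p, its direction and its lack of overlap. Neither count is therefore support for a difference. The fitted fold change was below 0 for 7 of the 8 and above 0 for Bak1, against 49.4% of tested genes below 0 and 50.6% above. The median was -0.21 on the log2 scale, against 0.0048 for all genes tested. These 7 include Bcl2l1, Mcl1 and Bid, whose sign turned when single libraries were left out.

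**Figure D2:**
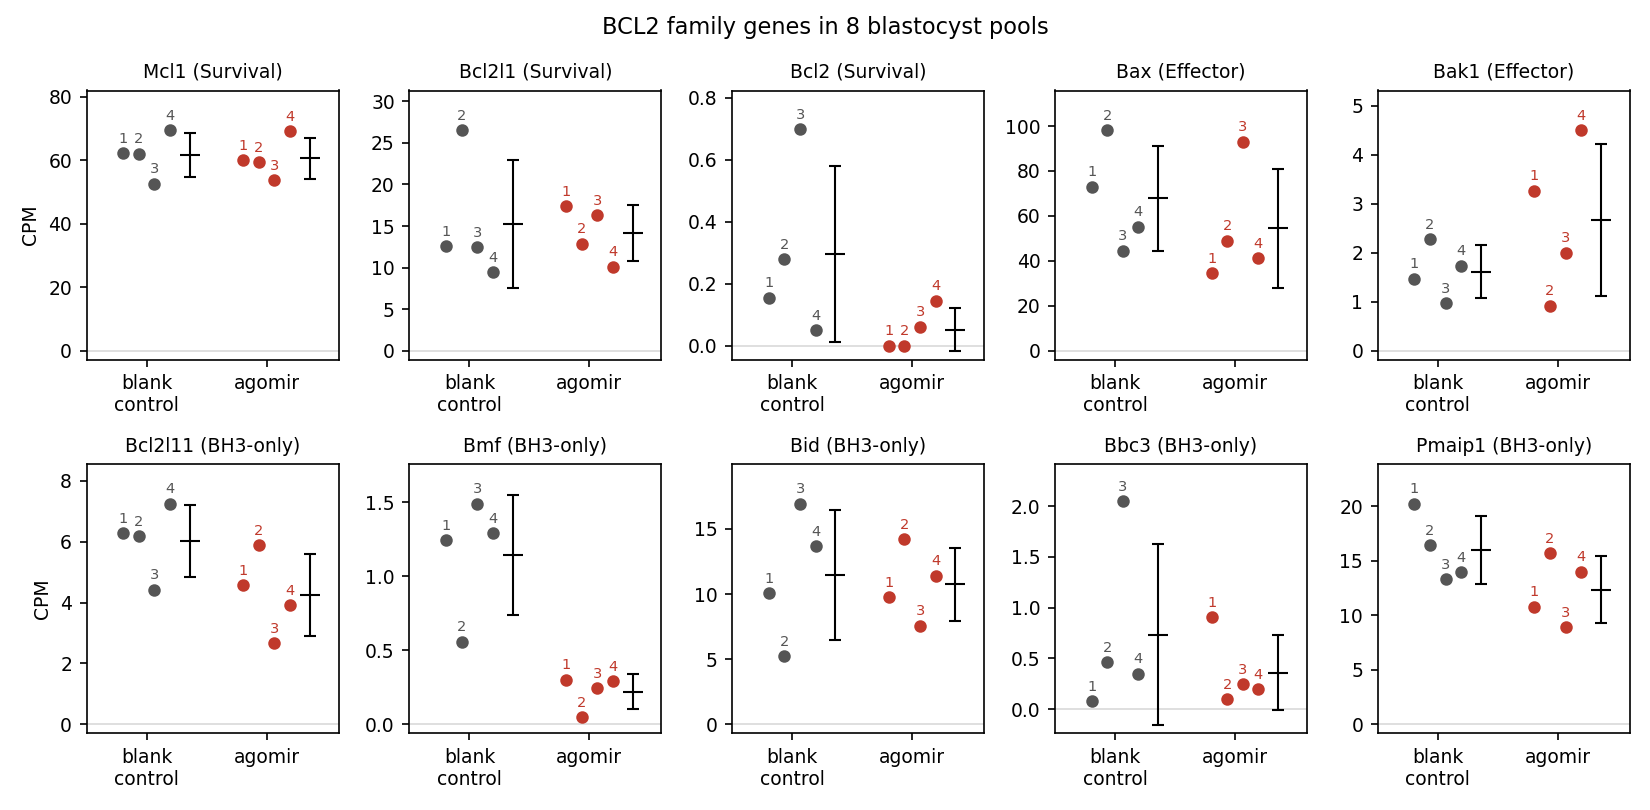
CPM of each gene in 8 libraries, on a linear axis for each panel; points are libraries with their replicate number, and the bar is the mean ± SD of 4 libraries. For Bmf the 4 agomir libraries (0.0483 to 0.301 CPM) lie below the 4 controls (0.557 to 1.49 CPM), and for the other 9 genes the groups overlap. Bmf passed the filter on low counts through its controls alone.

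Bmf encodes a BH3-only protein that is held on the actin cytoskeleton through dynein light chain and released when cells lose attachment. Its counts were 16, 12, 32 and 26 in the controls, and 6, 1, 4 and 6 in the agomir libraries, both in replicate order. In CPM these were 1.24, 0.557, 1.49 and 1.29 in controls, and 0.301, 0.0483, 0.242 and 0.290 with the agomir. Every agomir library was below every control, and control 2 was the lowest of the controls. The means were 1.14 ± 0.406 and 0.221 ± 0.118 CPM (SD, n = 4), with a log2 fold change of -2.34 (SE 0.62, 95% interval -3.70 to -0.99, unadjusted p = 0.00268 and adjusted p = 0.656 in edgeR). Bmf passed the filter through its control libraries alone, so a tested Bmf had to show higher controls. In all, 103 counts carry this comparison, and agomir 2, with 1 count, was under the level of 3 counts in that library (0.145 CPM).

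The Bmf fold change lay between -2.57 and -2.01 when each library was left out in turn, with adjusted p from 0.518 to 0.999. Without both control 2 and agomir 3 it was -2.62 (adjusted p = 0.750), and with DESeq2 it was -2.36 (adjusted p = 0.155). With no filter on low counts it was -2.33 in edgeR (unadjusted p = 0.00464, adjusted p = 0.691). On log2(FPKM + 1) it was -0.30 and on log2(FPKM + 0.1) it was -1.34, since a pseudocount shrinks the change of a gene at this level. The summed cumulus and granulosa markers were below every control in 3 of the 4 agomir libraries (3.87, 1.64 and 1.21 CPM in agomir 2, 3 and 4), and stood at 13.1 CPM in agomir 1, of which Inha alone gave 11.3 CPM. Without Inha the other 9 markers summed to 1.78, 4.46, 4.14 and 2.58 CPM in the controls and to 1.76, 3.38, 1.64 and 1.11 CPM in the agomir libraries. On that sum, chosen after seeing Inha, agomir 3 and agomir 4 were below every control. Agomir 1 was level with control 1 (1.76 against 1.78 CPM), and agomir 2 was among the controls. Cyp19a1 was at 0 in all 8 libraries and Fshr in the 4 agomir libraries and control 4. Amh, Has2 and Tnfaip6 had higher means with the agomir, and Foxl2, Fshr, Inha, Inhba, Ptx3 and Star had lower ones. The part of such cells in the Bmf difference was not tested.

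Bcl2l11, whose product BIM binds all the survival proteins, was at 6.28, 6.18, 4.42 and 7.25 CPM in controls and at 4.57, 5.89, 2.67 and 3.92 CPM in agomir libraries. The highest agomir value, in agomir 2, was above control 3, so the groups overlapped. The log2 fold change was -0.50 (SE 0.30, 95% interval -1.15 to 0.16, edgeR adjusted p = 0.819). It kept its sign in the alternatives run, from -0.69 without agomir 2 to -0.26 on log2(FPKM + 1). This is the gene with the 7-base seed match printed above.

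Pmaip1, which encodes NOXA, a partner of MCL1 and a p53 target, was at 20.2, 16.4, 13.3 and 13.95 CPM in controls and at 10.8, 15.7, 8.90 and 13.99 CPM with the agomir. Agomir 1 and agomir 3 were below the controls and the other 2 were among them. The log2 fold change was -0.37 (SE 0.24, 95% interval -0.89 to 0.15, edgeR adjusted p = 0.827), and -0.24 without control 1. Bid, which links death receptors to mitochondria once caspase-8 has cut it, was at 10.1, 5.25, 16.9 and 13.7 CPM in controls and at 9.74, 14.2, 7.57 and 11.4 CPM with the agomir. Its lowest value in each group fell in control 2 and agomir 3, the libraries that stood apart. The Bid fold change of -0.096 (SE 0.34) turned to 0.16 without control 3 and to 0.042 without agomir 3, and was near 0 without control 4.

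Bbc3, which encodes PUMA, another p53 target, had 1, 10, 44 and 7 counts in controls and 18, 2, 4 and 4 with the agomir. Control 3 alone held 44 of the 62 control counts, or 2.05 CPM. Without control 3 the difference in mean CPM, agomir minus control, went from -0.375 to 0.0625. With no filter on low counts, edgeR gave an adjusted p of 0.754 for Bbc3.

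Among the survival genes, Mcl1 varied least. It was at 62.1, 62.0, 52.6 and 69.4 CPM in controls and at 59.9, 59.4, 53.7 and 69.2 CPM in agomir libraries. The groups covered the same range, with a standard deviation of 11.2% of the mean in controls and 10.6% in agomir pools. The log2 fold change was -0.023 (SE 0.16, 95% interval -0.37 to 0.33, edgeR adjusted p = 0.989). The sign turned without control 4 (0.042) or agomir 3. The Mcl1 site printed above is the shorter match.

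Bcl2l1, which encodes BCL-XL, was at 12.6, 26.5, 12.4 and 9.48 CPM in controls and at 17.4, 12.9, 16.3 and 10.1 CPM with the agomir. Control 2 held the highest value of all, and the other 7 libraries lay between 9.48 and 17.4 CPM. The log2 fold change was -0.11 (SE 0.32, 95% interval -0.80 to 0.58, edgeR adjusted p = 0.965). Without control 2 it was 0.30 (adjusted p = 0.861), and without agomir 4 it was 0.028, so its sign rests on single libraries.

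Bcl2 had 2, 6, 15 and 1 counts in controls and 0, 0, 1 and 3 in agomir libraries, 28 counts in all. Control 4 was within the range of the agomir libraries, so the groups overlapped. A count of 0 allows up to 0.151 CPM in agomir 1 and 0.145 CPM in agomir 2 (3 counts, counting error only). With no filter, edgeR gave a log2 fold change of -2.39 (SE 1.37, unadjusted p = 0.0996, adjusted p = 0.734) for Bcl2, which depends on the prior count. Control 3, with the most Bcl2, also had the highest summed cumulus and granulosa markers (16.3 CPM, or 4.14 CPM without Inha, where control 2 was higher), and their part in the Bcl2 counts was not tested. The difference in mean CPM went from -0.244 to -0.110 without control 3.

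Bax, the effector that moves from the cytosol to mitochondria, was at 73.1, 98.1, 44.6 and 55.3 CPM in controls and at 34.6, 48.99, 93.1 and 41.1 CPM with the agomir. The highest values were in control 2 and agomir 3, which also had the highest summed trophectoderm markers of their groups (4593 and 8892 CPM). The other libraries did not keep this order. Control 1, with Bax at 73.1 CPM, had the lowest marker sum (2620 CPM), and agomir 1, with the lowest Bax, had 4070 CPM. Much of the sum is Krt8 and Krt18, and single markers differed. Cdx2, Gata3, Krt8, Krt18 and Tead4 were highest of the controls in control 2, while Tfap2c, Krt7, Elf5, Eomes and Id2 were not. Elf5 was lowest of the controls there (39.0 CPM). In agomir 3 each marker but Gata3 was the highest of the agomir libraries. The part of cell composition in these Bax values was not tested. The log2 fold change was -0.32 (SE 0.32, 95% interval -1.02 to 0.38, edgeR adjusted p = 0.882). It was -0.70 without agomir 3 (unadjusted p = 0.0202, adjusted p = 0.704) and -0.079 without control 2 (adjusted p = 0.982). Without both it was -0.47 (adjusted p = 0.808).

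Bak1, which encodes the effector that sits in the mitochondrial membrane, was at 1.47, 2.28, 0.977 and 1.74 CPM in controls and at 3.26, 0.918, 1.999 and 4.50 CPM with the agomir. Agomir 1 and agomir 4 were above the controls, agomir 3 was among them and agomir 2 was the lowest of all 8 libraries. The log2 fold change was 0.72 (SE 0.48, 95% interval -0.33 to 1.78, edgeR adjusted p = 0.827), 1.01 without agomir 2 and 0.35 without agomir 4. In GENCODE M21 an exon of Ggnbp1 overlaps Bak1 on the opposite strand. Another entry of that name does so too, and its level is not given here. Ggnbp1 had 8.70 ± 1.19 CPM on average in controls and 4.96 ± 2.12 CPM in agomir pools. Since the strand setting of the counting is not given in the sources used here, reads from the overlap cannot be told apart. The same holds for Bid and Bcl2l13, which share an exon region on opposite strands, and for Bcl2 and D630008O14Rik. Bax is overlapped by an exon of Gm45808 on the same strand, and Gm45808 was at 0 CPM in all 8 libraries.

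**Figure D3:**
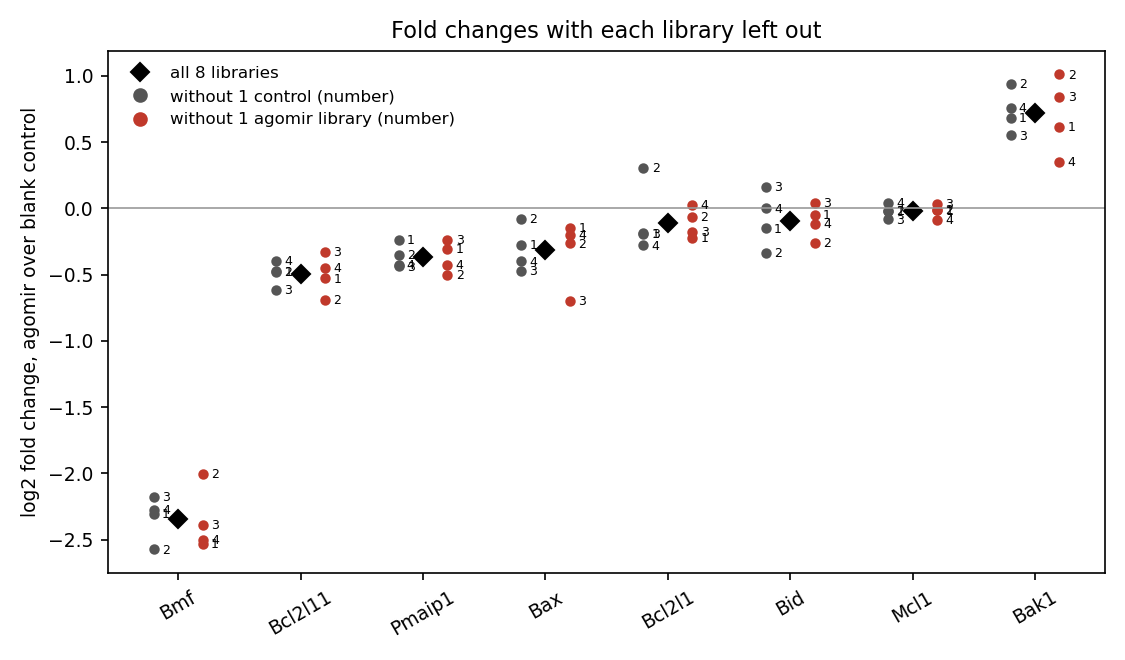
Log2 fold changes, agomir over blank control, of the 8 tested genes with all libraries (diamonds) and with each of the 8 libraries left out (points, numbered by replicate). Bmf stays between -2.57 and -2.01, Bax moves from -0.70 to -0.079, and Bcl2l1, Bid and Mcl1 cross 0.

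Other genes of the BCL2 family came from a list of 18, of which 12 were tested, 7 with a fold change above 0 and 5 below (median 0.098 on the log2 scale). None passed an adjusted p of 0.05 and 0 of 12 had an unadjusted p under 0.05. Bnip3, a BH3-like gene of mitophagy, was the most abundant, with 856 ± 247 CPM for the controls and 1045 ± 222 CPM for the agomir, and its relative Bnip3l was at 204 ± 20.6 and 203 ± 13.7 CPM. Bok, an effector relative of BAX and BAK, was at 41.1 ± 18.8 and 52.3 ± 3.62 CPM. Its log2 fold change of 0.35 (SE 0.26, adjusted p = 0.844 in edgeR) was 0.72 without control 3 (adjusted p = 0.410). Bad, a BH3-only gene controlled by growth factor signalling, was at 30.5 ± 3.74 and 33.9 ± 9.94 CPM. Bcl2l13 was at 33.4 ± 4.63 and 31.2 ± 3.07 CPM, Bcl2l12 at 21.4 ± 6.87 and 25.6 ± 11.4 CPM, and Bcl2l14 at 16.8 ± 4.18 and 13.5 ± 3.12 CPM. Bcl2l15 was at 0.713 ± 0.311 and 1.09 ± 0.346 CPM.

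**Figure D4:**
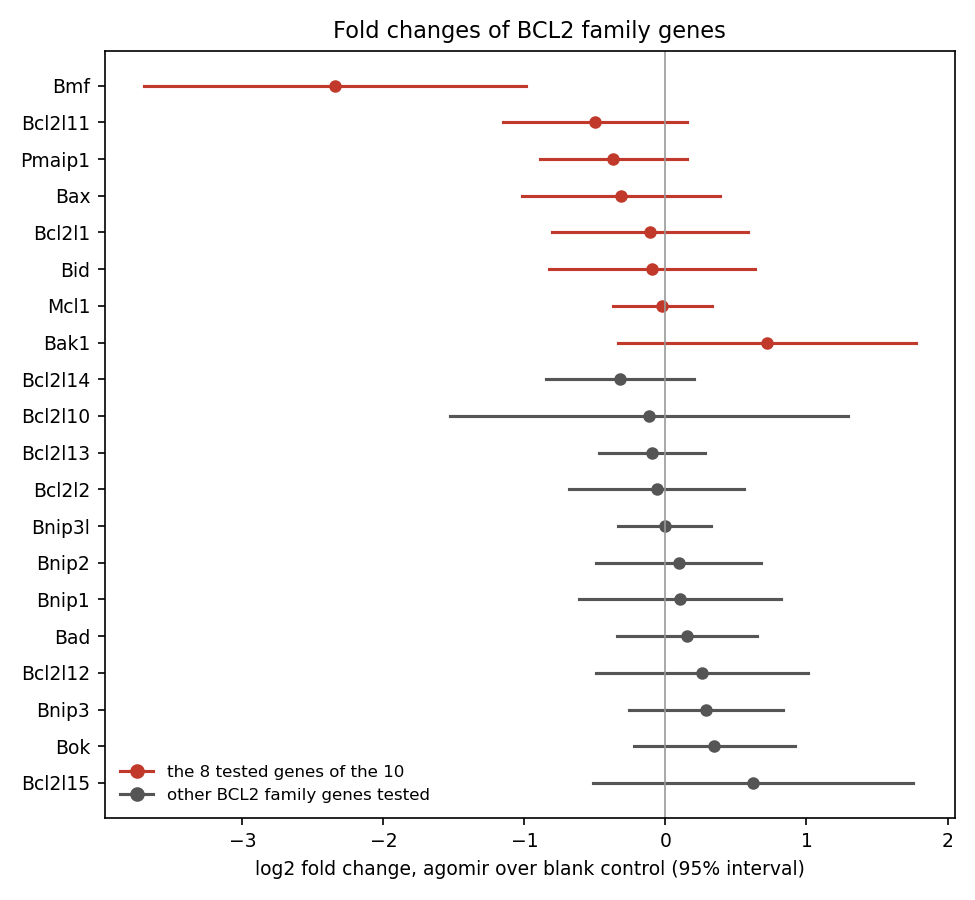
Log2 fold changes, agomir over blank control, with 95% intervals from edgeR, for the 8 tested genes of the 10 and for the 12 tested genes of the wider BCL2 family list. The interval of Bmf (-3.70 to -0.99) is the one that does not reach 0, before adjustment over 12366 genes. Bmf passed the filter on low counts through its controls alone, which favours such an interval.

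Downstream of BAX and BAK, 13 of 13 listed genes of cytochrome c release and caspase activation were tested, 6 with a fold change above 0 and 7 below (median -0.0013), with 0 at an unadjusted p under 0.05. Among those with the smallest p-values were Endog, which encodes a mitochondrial nuclease (18.5 ± 5.30 CPM for the controls and 24.5 ± 8.97 CPM for the agomir), the mitochondrial channel gene Vdac1 (188 ± 18.5 and 222 ± 45.2 CPM) and the initiator caspase gene Casp9 (6.69 ± 0.930 and 5.37 ± 1.25 CPM). Among 17 tested regulators of the family, 8 were above 0 and 9 below (median -0.031), again with 0 at an unadjusted p under 0.05. Foxo3, a transcription factor that activates Bcl2l11 and Bbc3, was at 24.4 ± 4.13 and 31.5 ± 8.04 CPM, a log2 fold change of 0.37 (SE 0.22, adjusted p = 0.818 in edgeR). Fbxw7, which marks MCL1 for degradation, was at 17.4 ± 3.72 and 21.7 ± 3.36 CPM, E2f1, a cell cycle factor that can activate BH3-only genes, at 5.92 ± 2.11 and 4.10 ± 1.48 CPM, and Tmbim6, which encodes BAX inhibitor 1, at 513 ± 91.2 and 630 ± 121 CPM.

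The patterns most like those of 2 members were sought among 8697 genes of at least 5 CPM, by the mean absolute difference of centred log2 CPM over the 8 libraries. Bax had the highest mean CPM of the members (61.1), level with Mcl1 (61.0) in this unit, which is not scaled to gene length. For Bax the nearest were Klhdc4 (0.109), Prpf31 (0.123) and Snx8 (0.126). For Bmf, the member with the smallest p, they were Kcnv2 (0.192), Cybc1 (0.212) and Ephx1 (0.215). These differences are on the log2 scale after adding 0.5 CPM, which narrows the range of a gene as low as Bmf.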

How the data were processed

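Per the file headers, each of 8 libraries has a column of counts and one of FPKM. Per the submitters' processing notes, tools included HISAT2 2.1.0, RSEM, StringTie 1.3.1, DESeq2 1.36.0 and fastp 0.18.0, on GRCm39. For the annotation, each tool's role and strandedness, the sources used here state nothing. Counts were treated as estimated counts as deposited by the authors, since 1212 of 176104 values were not whole, and were rounded. FPKM values, scaled by the authors to length and depth, served for levels and an alternative test. Genes passing edgeR's filterByExpr (minimum count 10, minimum total 15) numbered 12366. edgeR 4.0.16 in R 4.3.3 (TMM, robust quasi-likelihood F test) compared the groups, with limma 3.58.1 and DESeq2 1.42.0 as alternatives. The procedure was tested on simulated data. SE is the log2 fold change divided by the square root of F. Replicate pairs of a group differed beyond sampling noise, so each library counts once. 3′ untranslated regions came from GENCODE M21, built on GRCm38, by Ensembl identifier, without combining coordinates. Proteins were not used here.

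The 10 genes and the lists were chosen with earlier results of these data known. Named genes were all 10, the 4 smallest p-values of each list, and other family genes of at least 20 CPM; 1 of these is not reported here. Each library was left out in turn. Replicate numbers recur in both groups and were not used to pair the pools in the main fit. Correlations of deviations between pools of the same number ran from -0.153 to 0.166. With 4 pools per group, these values cannot settle whether pools were paired.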

Additional observations from a re-analysis of the deposited data

Results flagged for a closer look

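In 52 groups of 4 libraries (26 genes in 2 groups), a library was looked for whose gap to its nearest neighbour was above Dixon's 95% critical share of the group's range; chance gives about 1 in 20. None of the 10 genes had such a library, and 3 of the other named genes did. Bnip3 was at 715 CPM in agomir 2, against 1113 CPM in the next lowest agomir library. Fbxw7 was at 23.0 CPM in control 3, against 16.0 CPM in the next highest control. E2f1 was at 9.07 CPM in control 1, the library with the fewest counts, against 5.16 CPM in the next highest control.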

How the results depend on the processing

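In each alternative run, 0 of the 10 genes passed an adjusted p of 0.05. Over all genes, DESeq2 called 33 (30 lower) and the other fits with all libraries 0; leaving out each library gave 0 to 1, the 1 being Il10rb without control 4. The number of the 10 genes with a higher agomir value was 0 with a filter at 5 CPM, which removes Bak1 and Bmf, 2 with limma-voom, 3 without both control 2 and agomir 3, and 1 to 3 when each library was left out. The sign of Bcl2l1 turned with limma-voom (0.098) and without both libraries (0.23), and its value ran from -0.28 to 0.30 when each library was left out. Mcl1 turned without both libraries (0.036) and ran from -0.087 to 0.042, Bid from -0.34 to 0.16. Bnip3l turned with DESeq2 (0.011) and with no filter (0.0036) and ran from -0.069 to 0.042. The difference in mean CPM of Bbc3, an alternative chosen after seeing the data, ran from -0.594 to 0.0625. The cause of these turns was not tested. Library-size scaling moved the median of all genes to -0.11 on the log2 scale and Bak1 to 0.57. With the replicate number as a block Bmf was at -2.42 (edgeR adjusted p = 0.836), and the block changed no call; 1 of the 4 replicate numbers correlated best with itself across groups. A planned ratio of Bax to Bcl2 could not be given, since Bcl2 is listed at 0 in agomir 1 and agomir 2. Few counts carry Bmf, Bcl2 and Bbc3 (103, 28 and 90 in all).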

Other observations

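The Bcl2a1 genes, close copies that encode the survival protein A1 and are known from blood cells, were seen in controls 1 and 3 and in none of the other 6 libraries; they were named after their values were seen. Bcl2a1d was at 0.543 and 0.791 CPM in those 2 libraries, Bcl2a1a at 0.465 and 0.140 CPM, and Bcl2a1b at 0.233 and 0.512 CPM, while Bcl2a1c had no count. As near-identical copies they can exchange reads. Ptprc, the leukocyte marker CD45, was at 0.279 CPM in control 3 and at 0 in the other 7 libraries, control 1 included. The other listed blood markers did not share this pattern. Hba-a1 was seen in every library (0.452 to 1.21 CPM) and was highest in control 2. Hba-a2 was highest in agomir 4 (0.774 CPM). Alas2 was at 0 in every control, and Hbb-bs and Hbb-bt had no count.

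The deposited FPKM values rest on a length that differs between libraries for some members. CPM on the table's unscaled total, divided by FPKM, gave a length of 3.39 to 3.42 kilobases for Mcl1 and 0.861 to 0.879 kilobases for Bax. For Bcl2l11 it ran from 2.41 in agomir 4 to 4.90 in control 2, and for Bmf it was 2.90 in control 4 and 4.70 in control 3, the libraries with the most Bmf counts (26 and 32). In the agomir libraries Bmf had 1 to 6 counts and FPKM values given to 2 decimals, too coarse for a length. FPKM values of Bcl2l11 and Bmf therefore differ between libraries partly through this length. Bcl2l11 in controls 1 and 3, for example, was at 2.23 and 0.93 FPKM and at 6.28 and 4.42 CPM.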
